A study of Mus musculus with 8 samples.

Results

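The genes of Wnt signaling at the cell surface and in the nucleus were followed in pericytes from mouse brain treated with TGF-β1. They were picked by gene symbol, with earlier results of these data known. They are the protein-coding genes for Wnt ligands, frizzled receptors, the co-receptors *Lrp5*, *Lrp6*, *Ror1* and *Ror2*, and R-spondins with their Lgr receptors. Also included are the secreted antagonists of the Sfrp and Dkk families with *Wif1* and *Notum*, and the feedback regulators *Axin1*, *Axin2*, *Nkd1* and *Nkd2*. The transcription factors *Tcf7*, *Tcf7l1*, *Tcf7l2* and *Lef1* complete the set. This choice gave 58 of the 54532 genes in the files, of which 46 passed a filter on low counts and were tested. Total RNA from 8 wild-type primary cultures was sequenced, 4 kept with vehicle and 4 given TGF-β1 (5 μg/mL as labeled) for 48 h. Mouse strain, age and sex are not given in the labels. Cells were enriched by passage in pericyte medium rather than by sorting, and vehicle cultures are numbered 1 to 4 and TGF-β1 cultures 5 to 8. The study's methods describe 4 independent isolates given both treatments, whereas its design text counts 8 cultures, so the cultures were compared unpaired. The p-values measure the spread between these samples, which need not be the spread between independent isolates. Correlations of log levels over tested genes were 0.9928 to 0.9932 between cultures of a group and 0.9818 to 0.985 between groups.

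Wnt proteins are secreted, lipid-modified ligands that bind frizzled receptors. With Lrp5 or Lrp6 they stabilize β-catenin, which joins Tcf and Lef factors to switch on genes such as *Axin2*, whereas other branches run through Ror receptors without β-catenin. R-spondins and Lgr receptors keep frizzled receptors on the surface, and Sfrp, Dkk, Wif1 and Notum proteins restrain the ligands or their receptors. In the brain, Wnt7a and Wnt7b are known for guiding vessel growth and barrier formation in endothelial cells, next to which pericytes lie.

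Library totals ranged from 45255235 to 47651397 counts with vehicle and from 45988208 to 46827358 with TGF-β1, so that 3 counts stood for 0.0631 to 0.0658 CPM (counts scaled to a common library size with TMM factors). The first principal component of all tested genes separated the groups and held 52.4% of the variance. Of the pericyte markers, *Pdgfrb* was at 202 ± 5.43 CPM with vehicle and 291 ± 2.58 CPM with TGF-β1 (SD, n = 4 each) and *Cspg4*, *Notch3* and *Anpep* were present, but *Kcnj8*, *Abcc9* and *Vtn* had under 10 counts in every culture. The summed level of the 12 pericyte markers was 416 to 436 CPM with vehicle and 572 to 594 CPM with TGF-β1. Of the 9 tested, *Pdgfrb*, *Cspg4* and *Ndufa4l2* were higher (log2 fold changes 0.53, 1.03 and 1.85). Lower were *Rgs5*, *Atp13a5* and *Anpep* (-2.02, -1.27 and -0.43), with *Rgs5* at 8.62 ± 0.466 CPM with vehicle and 2.13 ± 0.245 CPM with TGF-β1. *Notch3*, *Higd1b* and *Des* were not called, *Des* on 25 to 36 counts. Of all genes tested, 20.9% were higher and 20.3% lower. Fibroblast markers (8 genes) summed to 1753 to 1839 and 2623 to 2756 CPM, with *Col1a1* higher (1588 ± 36.8 and 2525 ± 49.5 CPM), *Foxc2* and *Dcn* lower (log2 fold changes -0.77 and -0.16) and *Pdgfra* not called (0.01). Neuron markers (4 genes) summed to 4.23 to 5.37 and 8.82 to 11.7 CPM, where *Tubb3* was higher (2.11 and 7.91 CPM), *Syt1* and *Rbfox3* were not called (log2 fold changes -0.12 and -0.69) and *Snap25* was not tested. Endothelial markers (8 genes) summed to 471 to 484 and 472 to 498 CPM, of which *Cdh5* made up 375 ± 6.23 and 367 ± 12.9 CPM. In this list *Flt1* was higher (81.7 and 99.2 CPM) and *Tek* lower (2.71 and 1.99 CPM). *Cdh5*, *Kdr* (17.9 and 18.6 CPM) and *Pecam1* (1.11 and 1.11 CPM) were not called. *Cldn5*, a defining marker, had at most 10 counts in any culture, and *Emcn* and *Slco1a4* were also too low to test. The part of these markers in the Wnt results was not tested, and fewer cells of a type cannot be told apart from less RNA per cell in such bulk samples.

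Most of the expressed Wnt genes differed between TGF-β1 and vehicle, in both directions. Among the 46 tested, 18 were higher and 22 lower with TGF-β1, and 6 were not called (edgeR quasi-likelihood test, adjusted p under 0.05). That is 87.0% of those tested, where 41.3% of all 22544 genes tested were called, 20.9% higher and 20.3% lower. The Wnt genes are all protein-coding, whereas the 22544 were neither limited to such genes nor matched for level. A change of at least 1 on the log2 scale was found for 12 of the 46 (26.1%), 8 higher and 4 lower, against 5.41% of all genes tested. The CPM ranges of the groups did not overlap for 35 of the 46 (76.1%), against 37.9% of all genes tested. The median log2 fold change was -0.12 for the Wnt genes and -0.01 for all genes, and the median size of the change was 0.45 and 0.18. Rises and falls were thus close to balanced among the Wnt genes.

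**Figure D1:**
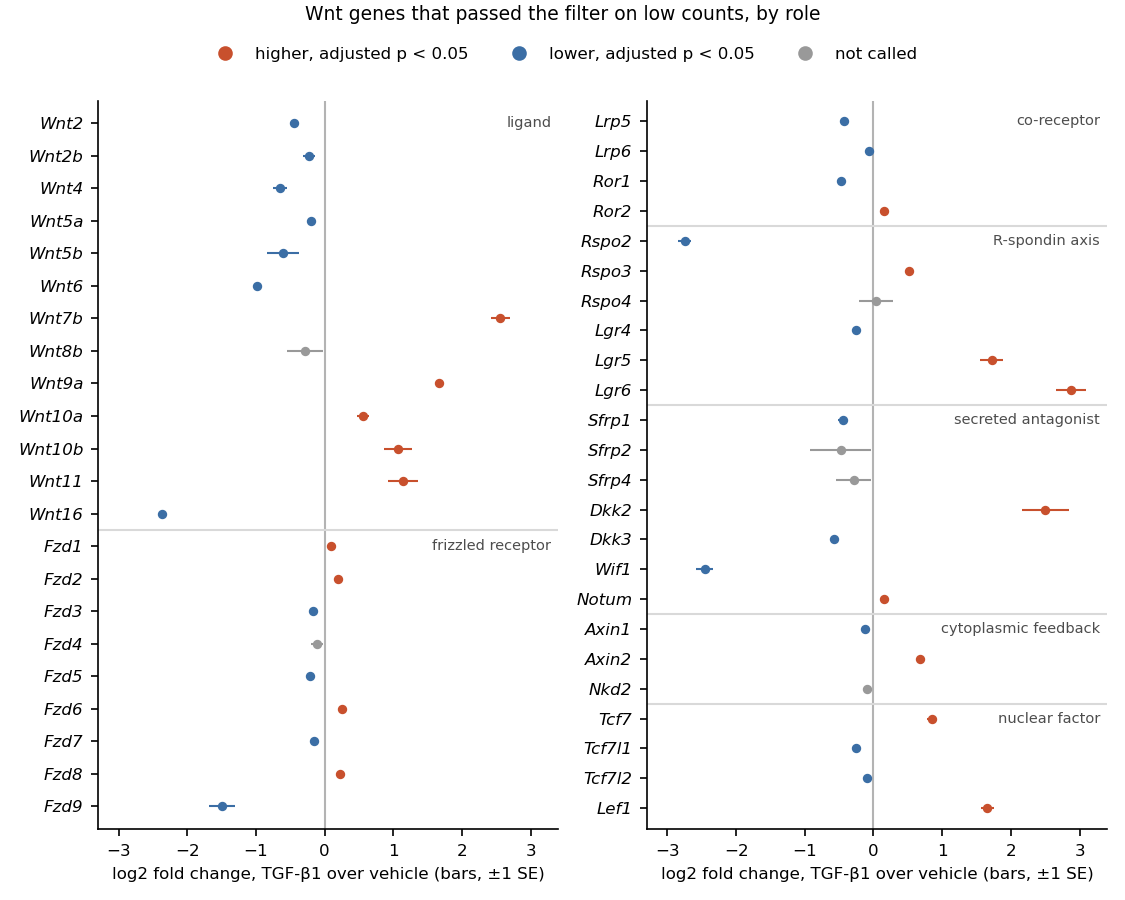
Log2 fold change (TGF-β1 over vehicle, x axis) of the 46 Wnt genes tested, grouped by role, with bars of 1 SE. Red points were higher, blue points lower and grey points not called (edgeR adjusted p under 0.05): ligands, R-spondin axis genes and antagonists spread to both sides, from -2.75 for *Rspo2* to 2.88 for *Lgr6*, whereas all frizzled receptors but *Fzd9* lay within 0.25 of 0.

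The remaining 12 genes were at or near the limit of detection. *Fzd10* had no count in any culture, which allows up to 0.0658 CPM per library (3 counts, counting error only). This limit takes each count as an independent fragment and is higher if both mates of a pair were counted. *Wnt1*, *Wnt3*, *Wnt3a*, *Wnt8a*, *Wnt9b*, *Sfrp5*, *Dkk1* and *Dkk4* stayed at 10 counts or fewer in every culture, and *Nkd1*, *Wnt7a* and *Rspo1* at 21 or fewer. *Nkd1*, a feedback inhibitor that is itself used as a β-catenin target, was at 0.217, 0.0439, 0.168 and 0.260 CPM with vehicle and 0.0873, 0.0436, 0.0873 and 0.0851 CPM with TGF-β1. Its highest values were in vehicle cultures, the ranges overlapped, and the counts were too low to test.

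The sequences just upstream of the genes were available from RefSeq (GRCm38.p6) for 39 of the 58. They are shown for *Wnt16*, *Wnt11* and *Lef1*, which changed by at least 1 on the log2 scale and hold a searched motif in the 250 bases before the start. *Axin2*, which holds one and changed by 0.68, was added. *Wnt5b*, *Fzd1* and *Fzd7* were also called and hold a motif, but are not shown because they changed by less (log2 fold changes -0.61, 0.09 and -0.16). *Lgr6* and *Wif1*, which changed strongly and hold none, are shown as well. *Wnt9a*, *Wnt10b*, *Fzd9* and *Dkk2*, which also changed by at least 1 on the log2 scale, hold none either and are not shown. For *Fzd9*, 183 of the 250 bases searched lie inside the GENCODE gene. Searched on both strands were the TCF/LEF word CTTTG followed by AA, AT, TA or TT, the SMAD palindrome GTCTAGAC and the shorter SMAD word CAGAC, which is part of neither of the others. Capitals mark a match as it reads on the strand of the gene, so that the match in *Wnt11*, which is on the opposite strand, ends in CAAAG. Each sequence runs 5′ to 3′ toward the start, and that of *Wif1* ends 44 bases before the RefSeq start, where the GENCODE gene begins. Positions of matches count from the RefSeq start, which for *Lef1* lies upstream of the GENCODE start given with its values.
*Wnt16* (chr6:22287977-22288226, plus strand): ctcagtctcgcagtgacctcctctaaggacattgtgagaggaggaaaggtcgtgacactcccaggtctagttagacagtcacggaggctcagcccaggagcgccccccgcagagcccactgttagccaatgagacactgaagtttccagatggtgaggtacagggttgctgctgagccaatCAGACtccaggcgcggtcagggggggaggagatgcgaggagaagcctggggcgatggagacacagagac
*Wnt11* (chr7:98834862-98835111, plus strand): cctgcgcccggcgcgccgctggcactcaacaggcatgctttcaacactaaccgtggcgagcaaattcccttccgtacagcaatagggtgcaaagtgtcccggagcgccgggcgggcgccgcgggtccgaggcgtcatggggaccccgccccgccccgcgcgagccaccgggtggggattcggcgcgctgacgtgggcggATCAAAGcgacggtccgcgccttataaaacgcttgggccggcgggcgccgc
*Lef1* (chr3:131110073-131110322, plus strand): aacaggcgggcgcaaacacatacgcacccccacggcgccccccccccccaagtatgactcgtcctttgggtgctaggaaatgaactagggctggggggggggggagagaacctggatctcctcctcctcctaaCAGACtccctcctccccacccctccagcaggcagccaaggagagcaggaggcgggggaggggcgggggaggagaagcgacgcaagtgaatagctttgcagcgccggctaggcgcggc
*Axin2* (chr11:108920099-108920348, plus strand): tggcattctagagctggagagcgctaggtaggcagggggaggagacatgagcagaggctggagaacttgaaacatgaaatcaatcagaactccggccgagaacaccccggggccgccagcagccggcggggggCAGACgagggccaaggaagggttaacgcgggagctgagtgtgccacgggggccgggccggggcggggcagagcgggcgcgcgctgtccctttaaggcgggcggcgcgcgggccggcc
*Lgr6* (chr1:135105277-135105526, minus strand): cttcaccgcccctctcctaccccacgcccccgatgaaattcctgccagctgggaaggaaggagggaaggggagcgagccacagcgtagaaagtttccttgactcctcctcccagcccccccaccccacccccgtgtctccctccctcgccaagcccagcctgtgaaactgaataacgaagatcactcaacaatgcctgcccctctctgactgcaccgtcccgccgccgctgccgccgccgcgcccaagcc
*Wif1* (chr10:121033754-121033959, plus strand): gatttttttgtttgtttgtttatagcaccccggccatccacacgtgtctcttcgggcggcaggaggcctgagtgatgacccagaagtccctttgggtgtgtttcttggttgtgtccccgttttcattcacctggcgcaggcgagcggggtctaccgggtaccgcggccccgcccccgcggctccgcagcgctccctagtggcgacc

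A TCF/LEF word was found upstream of 3 of the 39 genes (7.69%), *Wnt11*, *Fzd7* and *Dkk1*, and in 14.8% of all 32851 promoter windows of the same length. In *Wnt11* it lay 51 to 45 bases before the start. CAGAC was found upstream of 14 of the 39 (35.9%), against 42.2% of all windows, and lay 69 to 65 bases before the start of *Wnt16* and 117 to 113 bases before the starts of *Lef1* and *Axin2*. The palindrome occurred in none of the 39 and in 0.167% of all windows. These are matches of letters and were not tested as binding sites. RefSeq entries for *Wnt5a*, *Wnt7b*, *Wnt8a*, *Wnt10a*, *Fzd2*, *Fzd3*, *Fzd6*, *Fzd8*, *Lrp5*, *Lrp6*, *Rspo2*, *Rspo3*, *Lgr5*, *Sfrp1*, *Sfrp4*, *Dkk3*, *Dkk4*, *Notum* and *Axin1* were not used here.

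Of the 19 Wnt ligands, 13 were tested, 5 rose, 7 fell and *Wnt8b* was not called (92.3% called, against 41.3% of all genes tested). Scaled by exon length, the most abundant ligand in both groups was *Wnt5a*, which usually signals without β-catenin, at 25.7 ± 0.548 CPM per kb with vehicle and 22.3 ± 0.455 with TGF-β1. *Wnt6*, *Wnt2* and *Wnt16* followed with vehicle at 14.7, 7.95 and 6.35 CPM per kb, and the culture ranges of these neighbors did not overlap. With TGF-β1 the order was *Wnt6* at 7.37, *Wnt2* at 5.87 and *Wnt9a* at 5.86 CPM per kb, the last pair overlapping. *Wnt16* had moved from rank 4 to rank 7 at 1.23 CPM per kb, where its range overlapped those of *Wnt2b* and *Wnt7b* beside it. The summed ligand level was 61.2 to 64.7 CPM per kb with vehicle and 49.7 to 51.3 with TGF-β1, without overlap. Within this sum *Wnt5a* made up 40.8% and 44.1%, *Wnt6* 23.3% and 14.6%, *Wnt16* 10.1% and 2.44%, and *Wnt9a* 2.92% and 11.6% (means of 4 cultures).

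**Figure D2:**
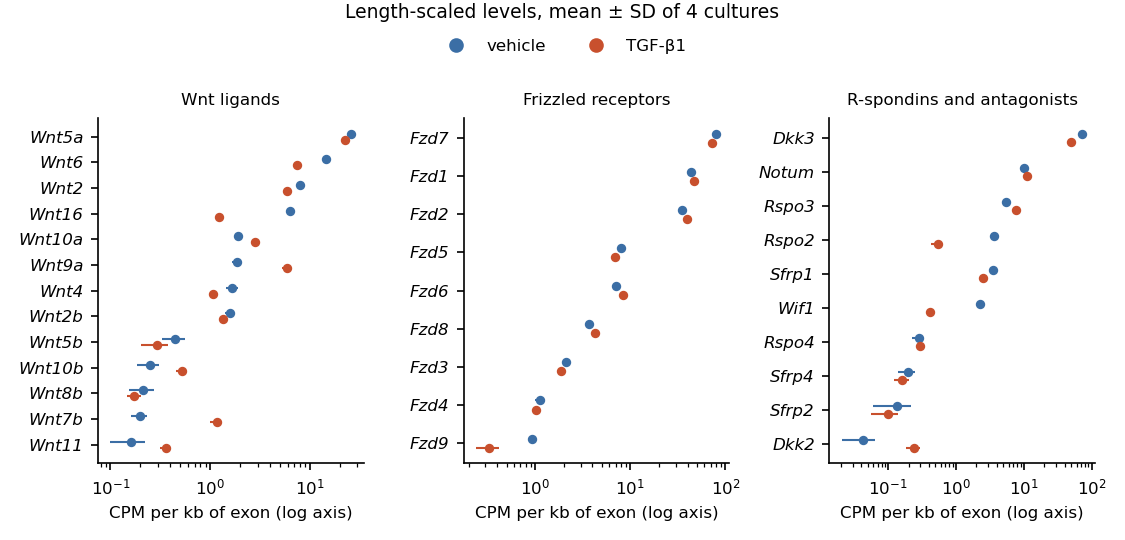
Mean level in CPM per kb of exon (x axis, log scale) with bars of 1 SD over 4 cultures, for the tested ligands, frizzled receptors, and R-spondins and secreted antagonists, with vehicle in blue and TGF-β1 in red. *Wnt5a*, *Fzd7* and *Dkk3* were the most abundant of their panels in both groups, whereas *Wnt16* went from rank 4 to 7, *Wnt9a* from 6 to 4 and *Wnt7b* from 12 to 8 among the ligands. Culture ranges of ligands next to each other overlapped for ranks 5 to 8 and 10 to 13 with vehicle. With TGF-β1 they overlapped for ranks 3 to 4 and 6 to 9, so order within these stretches is uncertain.

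*Wnt16* (ENSMUSG00000029671, chromosome 6, 22288227 to 22298522), a ligand best known from bone, fell the most among the ligands. Its level was 27.0, 29.8, 27.5 and 26.5 CPM in vehicle cultures 1 to 4 and 5.85, 4.90, 5.41 and 5.30 CPM in TGF-β1 cultures 5 to 8. Every vehicle culture was above every TGF-β1 culture, with a 5.16-fold difference between groups (log2 fold change -2.37, SE 0.06, edgeR adjusted p = 8.39e-31). *Wnt6* (ENSMUSG00000033227, chromosome 1, 74771892 to 74785322) was at 30.2, 32.8, 32.2 and 33.3 CPM with vehicle and 17.8, 15.9, 15.2 and 15.8 CPM with TGF-β1, again without overlap (log2 fold change -0.99, SE 0.05, edgeR adjusted p = 8.63e-21). *Wnt4*, needed in the developing kidney and gonad, was at 6.99, 6.89, 5.93 and 8.23 CPM with vehicle and 4.65, 4.51, 4.54 and 4.11 CPM with TGF-β1 (log2 fold change -0.65, SE 0.10, edgeR adjusted p = 3.05e-07). Its ranges were also separate.

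The other ligands that fell did so by less. *Wnt5a* was at 201 ± 4.29 CPM with vehicle and 175 ± 3.56 CPM with TGF-β1 (SD, n = 4 each), a small and tightly measured fall (log2 fold change -0.20, SE 0.02, edgeR adjusted p = 2.84e-09), and *Wnt2* at 17.9 ± 1.13 CPM with vehicle and 13.2 ± 0.385 CPM with TGF-β1 (log2 fold change -0.44, SE 0.06, edgeR adjusted p = 2.41e-08). For both the groups stood apart. *Wnt5b*, the close paralog of *Wnt5a*, was at 0.825, 1.01, 1.47 and 1.39 CPM with vehicle and 0.938, 0.479, 0.982 and 0.681 CPM with TGF-β1, and these ranges overlapped (log2 fold change -0.61, SE 0.23, edgeR adjusted p = 0.0331). *Wnt2b* overlapped as well (log2 fold change -0.23, SE 0.09, edgeR adjusted p = 0.0408). Their calls were lost in 5 and 8 of 15 alternative settings, with an edgeR or DESeq2 adjusted p of up to 0.151 for *Wnt5b* and 0.157 for *Wnt2b*. *Wnt8b* was at 21 to 46 counts per culture and not called (log2 fold change -0.29, SE 0.26, edgeR adjusted p = 0.417), its 95% interval reaching from -0.80 to 0.23 on the log2 scale.

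*Wnt7b* (ENSMUSG00000022382, chromosome 15, 85535437 to 85582473) rose the most among the ligands. It was at 0.911, 0.768, 1.18 and 1.02 CPM with vehicle and 4.87, 6.75, 5.83 and 5.47 CPM with TGF-β1, a 5.89-fold difference with no overlap (log2 fold change 2.56, SE 0.14, edgeR adjusted p = 1.45e-19). It stayed a minor ligand, at 0.314% of the summed ligand level with vehicle and 2.31% with TGF-β1. Its paralog *Wnt7a* had 0 to 19 counts and was not tested. *Wnt9a* (ENSMUSG00000000126, chromosome 11, 59306928 to 59333552), known from joint development, was at 5.90, 5.51, 6.84 and 6.26 CPM with vehicle and 16.9, 20.1, 19.4 and 21.6 CPM with TGF-β1, every treated culture being higher (log2 fold change 1.67, SE 0.07, edgeR adjusted p = 3.03e-22).

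*Wnt10a* and *Wnt10b*, paralogs that can restrain fat cell formation, both rose. *Wnt10a* (ENSMUSG00000026167, chromosome 1, 74791516 to 74804179) was at 4.43, 4.78, 4.55 and 4.94 CPM with vehicle and 6.96, 7.12, 6.90 and 6.55 CPM with TGF-β1 (log2 fold change 0.56, SE 0.09, edgeR adjusted p = 1.32e-06). *Wnt10b* (ENSMUSG00000022996, chromosome 15, 98770712 to 98778150), a gene of low counts, was at 0.781, 1.03, 0.989 and 0.563 and 1.61, 1.52, 1.94 and 1.98 CPM (log2 fold change 1.07, SE 0.20, edgeR adjusted p = 1.46e-05). In both the groups were separate. *Wnt11* (ENSMUSG00000015957, chromosome 7, 98835112 to 98855195), which often signals without β-catenin and whose upstream TCF/LEF word is printed above, was at 0.759, 0.395, 0.989 and 0.542 CPM with vehicle and 1.42, 1.76, 1.37 and 1.40 CPM with TGF-β1 (log2 fold change 1.14, SE 0.22, edgeR adjusted p = 3.76e-05). TGF-β1 culture 6 was the highest, and the lowest treated culture still exceeded the highest vehicle culture.

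Genes that lie side by side did not always move together. *Wnt6* and *Wnt10a* are on the same strand of chromosome 1 with 6193 bases and no protein-coding gene between them, and the first fell while the second rose. *Wnt9a* lies 16175 bases from *Wnt3a* on chromosome 11, and *Wnt10b* 11706 bases from *Wnt1* on chromosome 15. In these pairs the first gene rose while the second had at most 6 and 9 counts in any culture. The pair *Wnt9b* and *Wnt3*, 24328 bases apart on chromosome 11, had at most 2 and 10 counts.

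**Figure D3:**
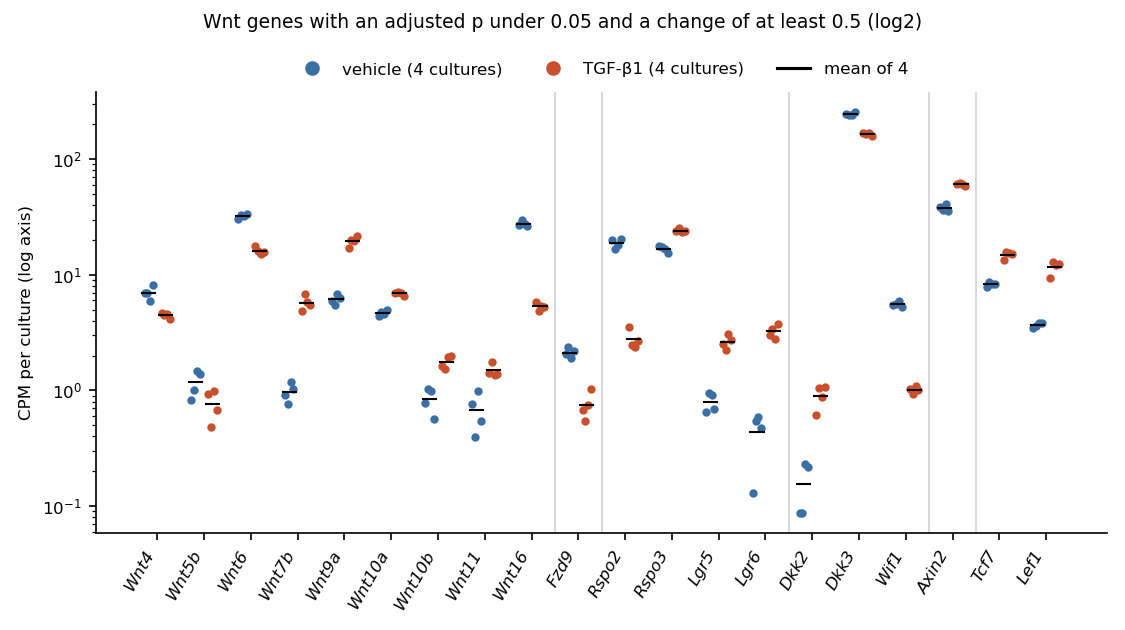
Level in CPM (y axis, log scale) in each of the 4 vehicle (blue) and 4 TGF-β1 (red) cultures for the 20 Wnt genes with an edgeR adjusted p under 0.05 and a log2 change of at least 0.5, with black lines for group means. The 2 groups were apart for every gene shown except *Wnt5b*. Because the genes were picked by their change in these same cultures, this separation adds no support of its own.

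The frizzled receptors changed little in comparison. Of 10 genes, 9 were tested, 4 rose, 4 fell and *Fzd4* was not called (88.9% called, against 41.3% of all genes tested). Their summed level was 179 to 185 CPM per kb with vehicle and 173 to 188 with TGF-β1, and these ranges overlapped. *Fzd7*, the most abundant, made up 44.2% of the sum with vehicle and 39.7% with TGF-β1, followed by *Fzd1* with 24.0% and 25.7% and *Fzd2* with 19.2% and 22.0%. *Fzd7* was at 364 ± 8.32 CPM with vehicle and 327 ± 19.9 CPM with TGF-β1 (log2 fold change -0.16, SE 0.03, edgeR adjusted p = 0.00042), and TGF-β1 culture 5 reached into the vehicle range. *Fzd1*, *Fzd2*, *Fzd6* and *Fzd8* rose by 0.09 to 0.25 on the log2 scale, and *Fzd3* and *Fzd5* fell by 0.17 and 0.21. Of *Fzd5* exon bases, 17.8% overlap an antisense gene. *Fzd9* (ENSMUSG00000049551, chromosome 5, 135248938 to 135251230) was the exception in size, at 2.08, 2.35, 1.89 and 2.17 CPM with vehicle and 0.676, 0.544, 0.742 and 1.02 CPM with TGF-β1 (log2 fold change -1.50, SE 0.19, edgeR adjusted p = 7.69e-09). Its groups did not overlap, on 25 to 107 counts. *Fzd4*, the receptor through which Norrin acts on vessels, was at 8.22, 6.95, 6.50 and 8.34 CPM with vehicle and 6.94, 6.25, 7.57 and 6.96 CPM with TGF-β1, and the 95% interval of its log2 difference ran from -0.29 to 0.06.

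Both co-receptors of the β-catenin branch fell, by very different amounts. *Lrp5* was at 189, 190.0, 182 and 187 CPM with vehicle and 141, 137, 145 and 133 CPM with TGF-β1, without overlap (log2 fold change -0.43, SE 0.03, edgeR adjusted p = 5.84e-18). *Lrp6* was at 202, 189, 192 and 190.0 CPM with vehicle and 185, 182, 181 and 187 CPM with TGF-β1 (log2 fold change -0.07, SE 0.03, edgeR adjusted p = 0.0196). These groups were close and just separate, and the call was lost in 2 of 15 alternative settings, without vehicle culture 1 or TGF-β1 culture 7, with an edgeR adjusted p of up to 0.202. *Ror1* and *Ror2*, receptors for Wnt5a, moved in opposite directions. *Ror1* was at 13.1 ± 0.342 CPM with vehicle and 9.42 ± 0.251 CPM with TGF-β1 (log2 fold change -0.47, SE 0.06, edgeR adjusted p = 4.73e-08), and *Ror2* at 25.5 ± 1.31 CPM with vehicle and 28.4 ± 1.05 CPM with TGF-β1 with overlapping ranges (log2 fold change 0.16, SE 0.05, edgeR adjusted p = 0.00453).

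In the R-spondin axis the main ligands moved apart. Of the 7 genes, 6 were tested, 3 rose, 2 fell and *Rspo4* was not called (83.3% called, against 41.3% of all genes tested). *Rspo2* (ENSMUSG00000051920, chromosome 15, 43020794 to 43170826) had the largest fall of all the Wnt genes tested, from 19.8, 16.6, 18.0 and 20.4 CPM with vehicle to 3.56, 2.46, 2.38 and 2.68 CPM with TGF-β1, a 6.75-fold difference (log2 fold change -2.75, SE 0.09, edgeR adjusted p = 1.01e-23). *Rspo3*, which has roles in vessel development, was at 17.6, 17.3, 16.8 and 15.5 CPM with vehicle and 24.1, 25.1, 23.4 and 23.7 CPM with TGF-β1 (log2 fold change 0.52, SE 0.05, edgeR adjusted p = 1.14e-11). Neither gene had overlapping groups. *Rspo2* made up 38.6% of the summed R-spondin level per kb with vehicle and 6.18% with TGF-β1, and *Rspo3* 57.4% and 89.0%. The sum itself was 9.18 to 9.96 CPM per kb with vehicle and 8.57 to 9.01 with TGF-β1. *Rspo4* stood at 0.673 ± 0.138 CPM with vehicle and 0.693 ± 0.0207 CPM with TGF-β1 (log2 fold change 0.04, SE 0.25, edgeR adjusted p = 0.916). An antisense gene, *Gm48159*, covers 13.1% of *Rspo3* exon bases and had 7 to 23 counts itself.

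All Lgr receptors for R-spondins changed. *Lgr4*, the most broadly expressed of them in the body, was at 34.5 ± 2.31 CPM with vehicle and 28.8 ± 0.657 CPM with TGF-β1 (log2 fold change -0.26, SE 0.04, edgeR adjusted p = 4.91e-06). *Lgr5* (ENSMUSG00000020140, chromosome 10, 115450311 to 115587780), a stem cell marker in the gut and a β-catenin target, was at 0.651, 0.943, 0.905 and 0.693 CPM with vehicle and 2.53, 2.24, 3.08 and 2.72 CPM with TGF-β1 (log2 fold change 1.72, SE 0.17, edgeR adjusted p = 2.3e-11). *Lgr6* (ENSMUSG00000042793, chromosome 1, 134983301 to 135105276), a marker of stem cells in skin, was at 0.130, 0.548, 0.589 and 0.477 CPM with vehicle and 3.03, 3.38, 2.77 and 3.75 CPM with TGF-β1, the largest rise of all the Wnt genes tested (log2 fold change 2.88, SE 0.22, edgeR adjusted p = 1.03e-13). For each of the 3 receptors the groups were apart. *Lgr6* rested on 6 to 28 counts per culture with vehicle, and its upstream sequence is printed above.

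The secreted antagonists divided. Of 10 genes, 7 were tested, 2 rose, 3 fell, and *Sfrp2* and *Sfrp4* were not called (71.4% called, against 41.3% of all genes tested). Their summed level was 87.5 to 92.2 CPM per kb with vehicle and 60.4 to 65.5 with TGF-β1. Most of it came from *Dkk3*, a divergent member of its family, with 81.8% of the sum with vehicle and 77.0% with TGF-β1. The fall of the sum thus mainly follows *Dkk3*, which was at 73.1 and 49.0 CPM per kb. *Dkk3* was at 245, 242, 242 and 254 CPM with vehicle and 168, 164, 169 and 158 CPM with TGF-β1, without overlap (log2 fold change -0.58, SE 0.03, edgeR adjusted p = 4.24e-23). *Wif1* (ENSMUSG00000020218, chromosome 10, 121033960 to 121100650), which binds Wnt ligands directly, was at 5.49, 5.53, 5.98 and 5.31 CPM with vehicle and 1.03, 0.936, 1.09 and 1.00 CPM with TGF-β1, a 5.49-fold difference (log2 fold change -2.46, SE 0.13, edgeR adjusted p = 2.89e-20). Again each vehicle culture was above each treated culture. *Sfrp1*, a soluble frizzled-like decoy, was at 15.2 ± 1.44 CPM with vehicle and 11.1 ± 1.00 CPM with TGF-β1, also apart (log2 fold change -0.45, SE 0.07, edgeR adjusted p = 7.5e-07).

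In the other direction, *Dkk2* (ENSMUSG00000028031, chromosome 3, 132085292 to 132180304), which binds Lrp5 and Lrp6, was at 0.0868, 0.0877, 0.231 and 0.217 CPM with vehicle and 0.611, 1.05, 0.873 and 1.06 CPM with TGF-β1 (log2 fold change 2.50, SE 0.34, edgeR adjusted p = 5.18e-08). The groups were separate, but the gene was scarce, with 4 to 50 counts per culture. *Notum*, an enzyme that removes the lipid from Wnt ligands, was at 23.9 ± 0.531 CPM with vehicle and 26.5 ± 1.99 CPM with TGF-β1, and the groups overlapped (log2 fold change 0.15, SE 0.05, edgeR adjusted p = 0.0134). The call was lost in 2 of 15 alternative settings, without TGF-β1 culture 5 or 7, with an edgeR adjusted p of up to 0.0876. Antisense genes cover 38.1% of its exon bases, and *Notumos* among them had 170 to 212 counts. The strand setting of the counting is not given in the sources used here, so the reads of *Notum* and *Notumos* may be shared. *Sfrp2* and *Sfrp4* had 4 to 22 and 24 to 51 counts per culture, and the 95% interval of the log2 difference ran from -1.34 to 0.38 for *Sfrp2* and from -0.79 to 0.21 for *Sfrp4*.

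Inside the cell, *Axin2* and the factors *Tcf7* and *Lef1* all rose. *Axin2* (ENSMUSG00000000142, chromosome 11, 108920349 to 108950783), a scaffold of the β-catenin destruction complex and the most widely used target of the pathway, was at 38.4, 36.5, 40.8 and 35.7 CPM with vehicle and 60.4, 62.3, 60.5 and 59.0 CPM with TGF-β1 (log2 fold change 0.68, SE 0.04, edgeR adjusted p = 1.36e-19). *Lef1* (ENSMUSG00000027985, chromosome 3, 131110471 to 131224356) was at 3.47, 3.58, 3.85 and 3.86 CPM with vehicle and 9.45, 12.8, 12.1 and 12.5 CPM with TGF-β1 (log2 fold change 1.66, SE 0.09, edgeR adjusted p = 1.3e-19). *Tcf7* was at 7.83, 8.62, 8.31 and 8.36 CPM with vehicle and 13.5, 15.8, 15.3 and 15.1 CPM with TGF-β1 (log2 fold change 0.85, SE 0.07, edgeR adjusted p = 1.76e-14). None of these genes had overlapping groups, and the 250 bases before *Lef1* and *Axin2*, shown above, hold CAGAC but no TCF/LEF word. An antisense gene, *Gm43352*, covers 13.7% of *Lef1* exon bases and had 5 to 22 counts, against 160 to 588 for *Lef1*.

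Their relatives went the other way by small amounts. *Tcf7l2* was at 104 ± 3.57 CPM with vehicle and 97.3 ± 3.32 CPM with TGF-β1 (log2 fold change -0.10, SE 0.03, edgeR adjusted p = 0.00438) and *Tcf7l1*, often a repressor, at 40.6 ± 3.58 CPM with vehicle and 33.8 ± 1.29 CPM with TGF-β1 (log2 fold change -0.26, SE 0.05, edgeR adjusted p = 1.71e-05). *Axin1*, the constitutive scaffold, was at 83.9 ± 1.90 CPM with vehicle and 77.4 ± 2.61 CPM with TGF-β1 (log2 fold change -0.12, SE 0.03, edgeR adjusted p = 0.00158). For these 3 genes the groups did not overlap, but the call for *Tcf7l2* was lost without vehicle culture 1 (edgeR adjusted p = 0.0635). *Nkd2* was not called (log2 fold change -0.10, SE 0.05, edgeR adjusted p = 0.129).

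Genes that are commonly used as targets of β-catenin were counted as a list of 16, of which 8 are among the Wnt genes above. The list was chosen with earlier results of these data known. Of the 13 tested, 10 were higher, 1 was lower and 2 were not called (84.6% called, where 20.9% of all genes tested were higher and 20.3% lower). Of the 8 that are not among the Wnt genes, 5 were higher, 1 lower and 2 not called (75.0% called, against 41.3% of all genes tested), with a median log2 fold change of 0.43 beside -0.01 for all genes. *Ccn4*, a secreted matricellular protein, was at 99.6 ± 1.06 CPM with vehicle and 186 ± 1.88 CPM with TGF-β1 (log2 fold change 0.90, SE 0.03, edgeR adjusted p = 3.71e-30), and *Ccn5* rose by 1.31 on the log2 scale. *Znrf3*, which removes frizzled receptors from the surface, was at 16.9 ± 0.768 CPM with vehicle and 26.8 ± 1.67 CPM with TGF-β1 (log2 fold change 0.67, SE 0.05, edgeR adjusted p = 1.01e-14). *Ccnd1*, a driver of the cell cycle with many other inputs, rose by 0.30 and *Apcdd1*, a membrane inhibitor of Wnt signaling, by 0.55. *Tnfrsf19* was the gene that fell (log2 fold change -0.69, SE 0.05, edgeR adjusted p = 3.15e-16). *Sp5*, a target used in many tissues, was not called (log2 fold change 0.19, SE 0.15, edgeR adjusted p = 0.339), nor was *Rnf43*, the homolog of *Znrf3* (log2 fold change 0.03, SE 0.24, edgeR adjusted p = 0.944), and *Nkd1*, *Dkk1* and *Dkk4* were too low to test.

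Outside the chosen genes, a list of 58 others that act in Wnt secretion, reception or transduction moved about as evenly. It too was chosen with earlier results of these data known. *Apcdd1*, *Rnf43* and *Znrf3* are in both this list and the target list, so the counts of these lists are not independent. Of 55 tested, 17 were higher, 18 lower and 20 not called (63.6% called, against 41.3% of all genes tested, median log2 fold change -0.02). *Porcn*, which attaches the lipid to Wnt ligands, was at 5.86 ± 0.348 CPM with vehicle and 9.66 ± 0.748 CPM with TGF-β1 (log2 fold change 0.72, SE 0.08, edgeR adjusted p = 3.36e-10), and *Wls*, which carries them to the surface, rose by 0.11. *Ctnnb1*, the gene of β-catenin, rose by 0.19 (SE 0.02, edgeR adjusted p = 3.66e-09). *Ryk*, another Wnt receptor, changed by 0.06 with an edgeR adjusted p of 0.0456, a call lost in 9 of 15 alternative settings.

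The 3 largest changes in that list were falls in genes that bind or restrain Wnt proteins. *Frzb*, a secreted frizzled-like antagonist that its symbol keeps out of the Sfrp family, was at 82.2, 81.0, 81.2 and 82.2 CPM with vehicle and 27.3, 25.2, 25.4 and 24.1 CPM with TGF-β1, without overlap (log2 fold change -1.68, SE 0.04, edgeR adjusted p = 3.22e-34). *Trabd2b*, a membrane protease that cleaves Wnt proteins, was at 9.33 ± 1.08 CPM with vehicle and 1.78 ± 0.669 CPM with TGF-β1 (log2 fold change -2.39, SE 0.18, edgeR adjusted p = 5.54e-08), and *Gpc3*, a glypican of the cell surface, at 22.0 ± 0.777 CPM with vehicle and 4.55 ± 0.263 CPM with TGF-β1 (log2 fold change -2.27, SE 0.07, edgeR adjusted p = 2.93e-29). The co-repressor *Tle4* fell by 0.97 on the log2 scale, while *Prickle1*, of the planar polarity branch, and *Dact1*, a Dishevelled-binding protein, rose by 0.92 and 1.04.

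**Figure D4:**
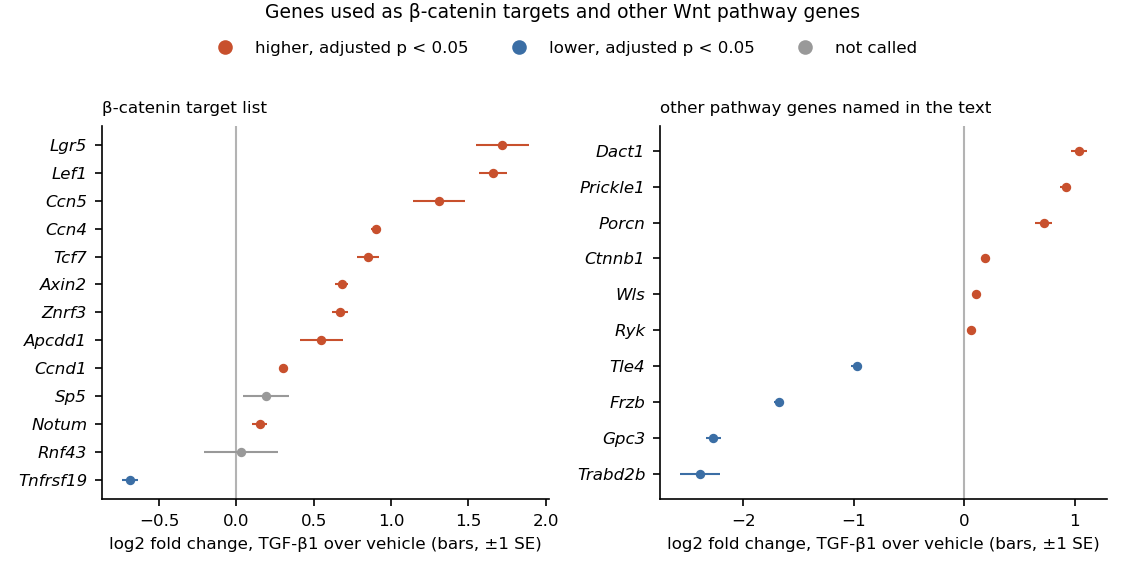
Log2 fold change (TGF-β1 over vehicle, x axis) with bars of 1 SE for the 13 tested genes of the β-catenin target list (left) and for 10 other Wnt pathway genes named in the text (right). Red points were higher, blue points lower and grey points not called: 10 of the 13 targets lay to the right and passed the test, and *Tnfrsf19* alone passed it on the left.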

How the data were processed

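RNA from 8 cultures, 4 with vehicle and 4 with TGF-β1, was analysed from gene counts. The authors aligned reads to mm10 with STAR 2.7.5c, removed PCR duplicates with SAMtools 1.15 and deposited featureCounts 2.0.3 counts per gene, without normalization and as 1 table per culture. The strand setting is not given in the sources used here. Counts from 1 to 20 were even for 68.5% to 70.2% of genes, so both mates of a pair may have been counted, and independent fragments may be fewer than counts. Between cultures of a group, chi-square per degree of freedom was 2.25 to 3.93 for counts as deposited and 1.14 to 2.11 for halved counts. The spread within groups was thus small, and whether it covers variation between isolates was not tested. The depth of 45255235 to 47651397 counts puts 3 counts at 0.0631 to 0.0658 CPM.

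Of the 54532 gene identifiers, 54495 were found in GENCODE M21 (GRCm38, the assembly of mm10), which gave symbols, positions and exon lengths. The groups were compared with edgeR 4.0.16 in R 4.3.3 (filterByExpr, TMM, robust quasi-likelihood test, group as the only term), with p-values adjusted across all 22544 tested genes by Benjamini-Hochberg and called at 0.05. The SE was the log2 fold change divided by the square root of F. Levels between genes were compared as CPM per kb of exon. The code was tested on simulated data. Alternatives were DESeq2 1.42.0, other scalings, filters for any count at all or for 10 counts throughout, counts halved and rounded up, and each culture left out.

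Values in every culture are given for genes with an adjusted p under 0.05 and a log2 change of at least 0.5, and for *Axin2*, *Lef1*, *Nkd1*, *Lrp5* and *Lrp6*. From the other pathway genes, *Ctnnb1*, *Wls*, *Porcn*, *Frzb*, *Rnf43*, *Znrf3*, *Ryk* and the 5 other largest changes were named, and from the target list all genes tested. The members and lists were chosen with earlier results of these data known, and *Frzb* had been seen in the study's own results. Astrocyte, microglia, oligodendrocyte and smooth muscle markers were also summed. With vehicle they ranged over 243 to 256, 8.29 to 8.97, 4.12 to 5.48 and 695 to 766 CPM. With TGF-β1 they ranged over 223 to 235, 9.66 to 11.3, 5.34 to 6.04 and 705 to 743 CPM. *Gja1* made up 195 and 190 CPM of the astrocyte sum with vehicle and TGF-β1, and *Acta2* 731 and 715 CPM of the smooth muscle sum. *Aqp4* had at most 6 counts in any culture, and *Gfap* and *Myh11* were at 0.879 and 1.1 CPM with vehicle. In these lists 2, 1, 1 and 1 markers were higher and 1, 0, 1 and 0 lower. Of all genes tested, 20.9% were higher and 20.3% lower.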

Additional observations from a re-analysis of the deposited data

Results flagged for a closer look

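In 1 of the 4 TGF-β1 cultures, culture 6, *Wnt11* stood apart at 1.76 CPM, with the nearest of the other three at 1.42 CPM. The lowest vehicle culture for *Fzd2*, culture 1, was at 125.0 CPM with its nearest neighbor at 128.1 CPM. Both were found by comparing the gap to the nearest culture with the range of the group in 130 groups of 4 cultures, of which chance alone flags about 1 in 20, or 6.5.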

How the results depend on the processing

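Among the Wnt genes, 37 to 40 were called over the 15 alternatives, against 40 in the edgeR test as reported, with 38 in DESeq2, 38 of 43 tested when 10 counts were required in every culture and 37 to 39 when 1 culture was left out. Over all genes 8559 to 9311 were called, against 9304, with 30 to 35 of the other pathway genes and 10 to 11 of the β-catenin targets. Of the 40 called Wnt genes, 35 kept their direction and their call in every alternative that gave a value. The call was lost in at least 1 alternative for *Wnt2b*, *Wnt5b*, *Lrp6*, *Notum* and *Tcf7l2*, and gained without vehicle culture 4 for *Nkd2* (edgeR adjusted p = 0.0424). Among the 64 genes with a test that are named here, direction turned only for 2 that were not called, *Rspo4* to -0.07 without vehicle culture 2, and *Rnf43* to -0.12 without vehicle culture 2, -0.05 without vehicle culture 4, -0.05 without TGF-β1 culture 7 and -0.0016 without TGF-β1 culture 8. With 1 culture left out *Rspo4* reached 0.18 and *Rnf43* 0.28 at most. The causes were not tested. The filter of 10 counts in every culture gave no value for *Lgr6*, *Dkk2* and *Sfrp2*, whose levels rest on few counts. Scaling moved the median log2 fold change of all genes only between -0.02 and -0.01. No paired analysis was possible because the vehicle and TGF-β1 cultures share no replicate number in the labels.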
